A study of Mus musculus with 16 samples.

Results

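The renin-angiotensin genes described here are 8 of the 30277 genes in each of 2 expression tables of mouse kidney: the renin gene Ren1, the angiotensinogen gene Agt, the peptidase genes Ace, Enpep and Mme, the angiotensin receptor genes Agtr1a and Agtr1b, and the (pro)renin receptor gene Atp6ap2. They were taken by gene symbol, and all 8 were found in both tables. Polyadenylated RNA was measured in kidneys of 129S1/SvlmJ mice, an inbred laboratory strain, that are congenic for a recessive mutation of Klotho (Kl), the gene of a co-receptor for the phosphate hormone FGF23. The groups were 5 male Kl/Kl, 3 male control (+/Kl), 4 female Kl/Kl and 4 female control (+/+) libraries, from mice aged 44 to 54 days. The labels give renal disease for Kl/Kl mice and healthy kidney function for controls. All male controls were heterozygous and all female controls were wild type, and each sex was deposited in a table of its own, so sex, table and control genotype cannot be told apart. The question was how renal failure from loss of Klotho goes with kidney gene expression in each sex. Whether each library is a different animal is not stated in the labels, and p-values then measure only the spread between these libraries, which may be technical.

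Renin, made by granular cells of the arteriole that enters the glomerulus, cuts angiotensinogen to angiotensin I, and angiotensin-converting enzyme (ACE, from Ace) trims that to angiotensin II, which raises blood pressure and salt retention through the type 1 receptors. Aminopeptidase A (Enpep) and neprilysin (Mme) break down or redirect the angiotensin peptides. In the kidney the proximal tubule carries ACE and both peptidases on its brush border and also makes angiotensinogen, while renin cells are few.

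The bases before the transcription starts are shown for the genes whose values the results turn on, since the files carry only gene coordinates. They are 120 bases up to the RefSeq start, from build GRCm38.p6, which is not the build of the files. Capitals mark the letters TATAAA, the core of a TATA box, on either strand. They also mark GGGCGG, the core of a GC box, on either strand. A match on the opposite strand appears as the reverse complement. The stretches are Ren1 at chr1:133350554-133350673 on the + strand, Agt at chr8:124569707-124569826 on the - strand, Ace at chr11:105967828-105967947 and, for an internal start, chr11:105975069-105975188, both on the + strand, and Enpep at chr3:129332750-129332869 on the - strand.
Ren1: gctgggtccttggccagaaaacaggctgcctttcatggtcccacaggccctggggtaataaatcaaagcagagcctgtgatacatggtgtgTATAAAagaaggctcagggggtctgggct
Agt: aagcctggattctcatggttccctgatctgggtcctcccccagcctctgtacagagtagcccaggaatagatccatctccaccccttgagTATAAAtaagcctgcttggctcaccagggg
Ace, start 1: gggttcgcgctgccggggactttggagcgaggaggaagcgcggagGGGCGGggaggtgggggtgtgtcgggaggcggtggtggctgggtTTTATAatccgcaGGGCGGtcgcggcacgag
Ace, start 2: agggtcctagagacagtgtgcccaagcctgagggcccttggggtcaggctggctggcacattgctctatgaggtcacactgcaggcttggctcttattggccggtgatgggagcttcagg
Enpep: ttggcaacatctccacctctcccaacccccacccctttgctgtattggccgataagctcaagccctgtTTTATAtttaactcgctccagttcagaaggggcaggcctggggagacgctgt
TATAAA stood on the sense strand 29 bases before the start in Ren1 and 30 in Agt, a placement (16 to 40 bases before the start) found in 1.99% of 32851 promoters. Ace start 1 held GGGCGG at 2 places and TATAAA on the opposite strand, Ace start 2 held neither, and Enpep held TATAAA on the opposite strand. On either strand and anywhere in the 120 bases, TATAAA was in 6.34% and GGGCGG in 26.5% of promoters. A match describes letters only, and the table holds promoters of 7 of the 8 genes.

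Values are TPM, reads per gene relative to length and scaled per library. Here the length was the distance from the start to the end of the gene with its introns, so levels are compared between libraries and not between genes. Libraries were estimated to hold 21.6 to 31.8 M reads. The targeted gene went with its labels: Kl was at 0.0235 to 0.265 TPM in male Kl/Kl against 4.14 to 15.1 TPM in male control kidneys, and at 0.0268 to 0.518 TPM in female Kl/Kl (0.0920 to 0.518 TPM without replicate 3) against 9.18 to 21.2 TPM in female control kidneys. Female Kl/Kl replicate 3, from the oldest mouse, stood apart. Its summed proximal tubule markers were at 16.0 TPM, against 721 to 982 TPM in the other female Kl/Kl and 965 to 1187 TPM in female control libraries, and its summed heart muscle markers were at 1904 TPM, against at most 2.00 TPM in any other female library. It also held 973 TPM of airway markers and 1184 TPM of adipocyte markers, against at most 0.410 and 40.5 TPM in any other library of the series. Male control replicate 3 also stood apart, with 54.3% of its TPM on mitochondrial genes, against 35.4% to 44.8% in the other males. The main results are therefore given with and without these libraries. Genes averaging 1 TPM or more were tested as log2(TPM + 1) with limma, and adjusted p-values ran over all of them. Over the genes tested, the median log2 change was 0.19 in males (0.01 without control replicate 3) and -0.16 in females (0.06 without Kl/Kl replicate 3), and scaling by median of ratios brought the medians over all libraries to 0.01 in males and 0.00 in females. Of the 8 genes, 6 passed the level filter. Agtr1a and Agtr1b did not.

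In males, Agt, the substrate of the whole cascade, rose in Kl/Kl kidneys, and without control replicate 3 Ace and Enpep fell. Agt was the single gene of the 6 tested past the threshold over all male libraries, where 5.92% of 8439 genes were (316 higher and 184 lower, against 487 higher and 695 lower with median-of-ratios scaling). Without control replicate 3 the 3 genes named passed, where 10.5% of 8640 genes did (273 higher and 636 lower, against 470 and 679 with that scaling). In females 0 of the 6 passed by limma over all libraries, where 0.0349% of 8596 genes did. At an unadjusted limma p under 0.05 there was 1 of the 6, Ace, with 414 of all 8596 genes. Without Kl/Kl replicate 3 again 0 of 6 passed, where 0.103% of 8748 genes did (5 higher and 4 lower, against 1 and 3 with that scaling). An unadjusted limma p under 0.05 was then found for 3 of the 6, Agt, Ace and Mme, with 1614 of all 8748 genes. With the replicate number as a block, that last fit called 17 genes in place of 9, and still 0 of the 6. The median log2 change of the 6 genes was 0.29 in males and -0.51 in females, and 0.01 and -0.17 without the libraries that stand apart.

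**Figure D1:**
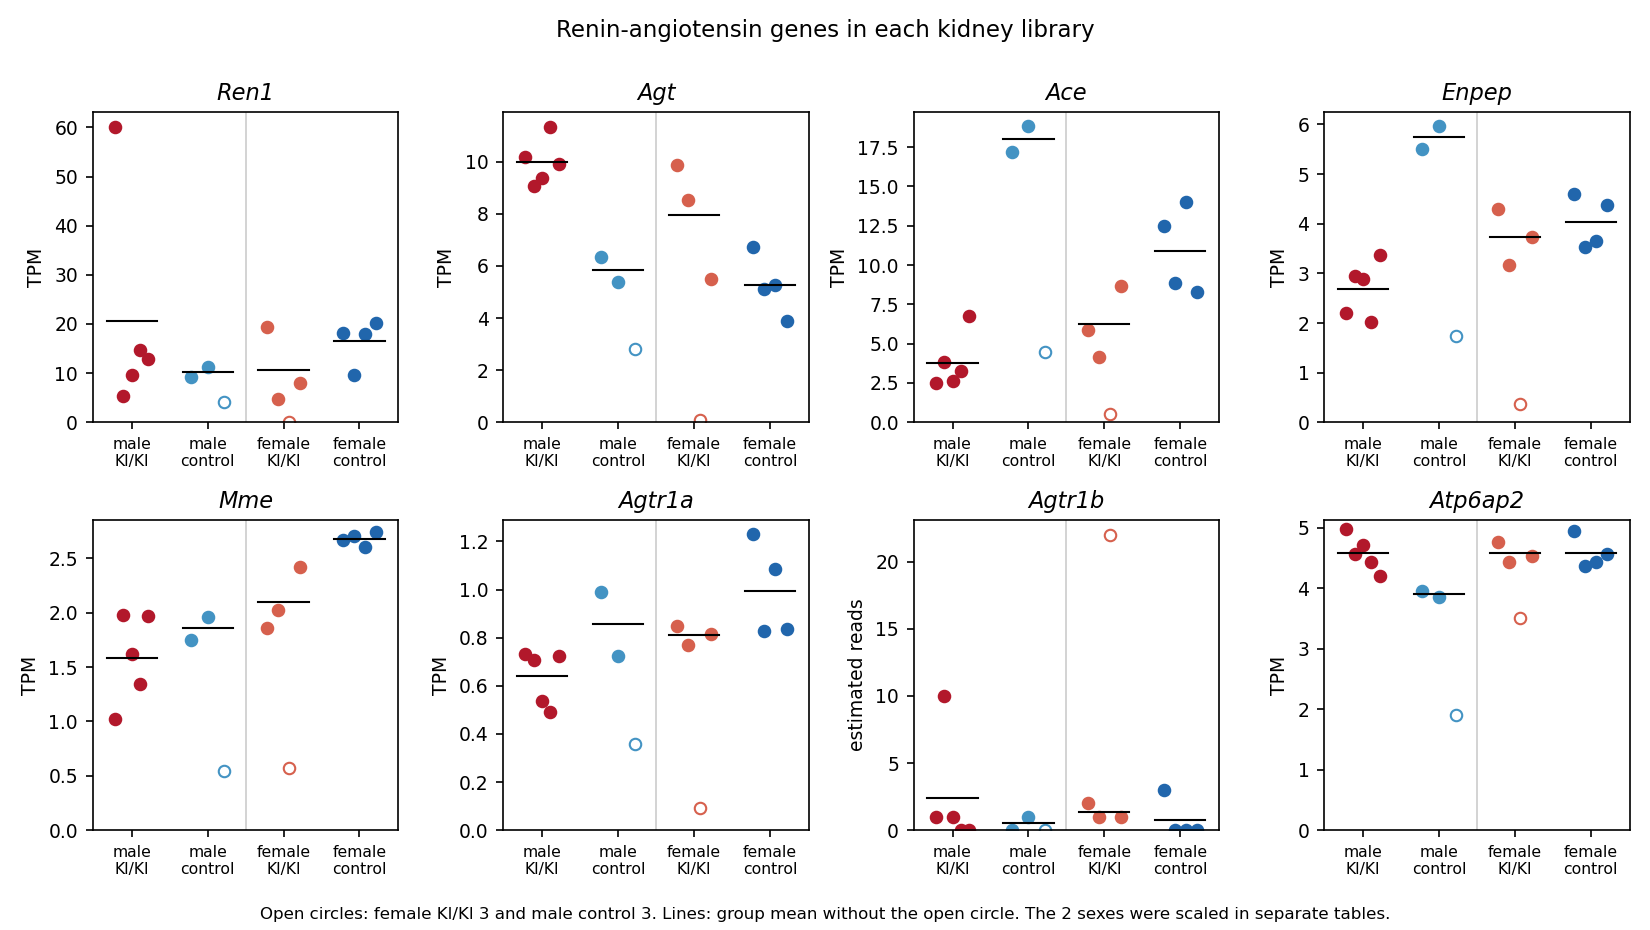
Each panel plots 1 gene, with TPM on the y axis (estimated reads for Agtr1b) and the 4 groups on the x axis, each point being 1 library. Open circles are replicate 3 of female Kl/Kl and of male control, and lines are group means without them. The 5 male Kl/Kl points of Agt sit between 9.08 and 11.3 TPM, above all male controls, while Ren1 spreads between 5.39 and 60.1 TPM in male Kl/Kl kidneys.

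Agt encodes angiotensinogen and lies on the - strand at chr8:125283273-125296446 (mm39). In male Kl/Kl kidneys it was at 10.2, 9.08, 9.38, 11.3 and 9.90 TPM, against 6.33, 5.38 and 2.83 TPM in male controls. All male Kl/Kl libraries lay above all male controls, as did 19.1% of genes tested (20.2% without control replicate 3). The mean was 9.98 ± 0.876 TPM in male Kl/Kl (SD, n = 5) and 4.84 ± 1.81 TPM in male control kidneys (SD, n = 3). The log2 change was 0.96 (SE 0.22, limma adjusted p = 0.0311), and 0.68 without control replicate 3 (SE 0.12, limma adjusted p = 0.0137), where the controls averaged 5.85 ± 0.669 TPM (SD, n = 2). Over all male libraries the call sat near the threshold. It was lost without Kl/Kl replicate 1 (limma adjusted p = 0.0711), replicate 2 (0.0599), replicate 3 (0.0582) or replicate 4 (0.0748) and without control replicate 2 (0.0696), although the log2 change then stayed between 0.91 and 1.05. Without control replicate 3 it was lost under 3 of 11 further alternatives: with control replicate 1 (log2 0.78, limma adjusted p = 0.0922) or control replicate 2 (log2 0.58, limma adjusted p = 0.181) left out in addition, and with the replicate number as a block (log2 0.64, limma adjusted p = 0.0873). Podocyte markers moved with Agt in males, their sum being 13.5 to 17.5 TPM in Kl/Kl and 5.47 to 11.0 TPM in control kidneys (10.7 to 11.0 TPM without control replicate 3), and their part in the change was not tested.

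In females the same gene was at 9.89, 8.55, 0.0709 and 5.48 TPM in Kl/Kl kidneys, against 6.74, 5.12, 5.25 and 3.90 TPM in control kidneys. The female groups overlapped, since Kl/Kl replicate 4 lay below control replicate 1 and Kl/Kl replicate 3 was nearly without reads of Agt (33 estimated reads). Over all female libraries the log2 change was -0.25 (SE 0.70, limma adjusted p = 0.850). Without Kl/Kl replicate 3 the sign turned to 0.51 (SE 0.20, limma adjusted p = 0.241), with 7.97 ± 2.26 TPM in Kl/Kl (SD, n = 3) and 5.25 ± 1.16 TPM in control kidneys (SD, n = 4). Agt was then higher in Kl/Kl in 3 of 3 same-numbered pairs of female libraries, as were 25.0% of genes tested, and the fit with the replicate number as a block gave 0.51 (SE 0.08, limma adjusted p = 0.113). The female minus the male change was -1.21 over all libraries (SE 0.76, limma adjusted p = 0.542) and -0.17 without both that stand apart (SE 0.25, limma adjusted p = 0.732), so a difference between the sexes was not detected for Agt.

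Set against the summed TPM of 10 proximal tubule markers of the same library, Agt was at 1.21% to 2.85% in male Kl/Kl and 0.492% to 0.643% in male control kidneys. These groups did not overlap, but neither did those of 39.8% of genes tested on that scale, all higher in Kl/Kl (52% without control replicate 3). Atp6ap2, at 0.513% to 1.11% in male Kl/Kl and 0.332% to 0.439% in male control kidneys, was among them. That marker sum itself was 399 to 817 TPM in male Kl/Kl and 575 to 983 TPM in male control kidneys (877 to 983 TPM without replicate 3). Its markers did not move together. By limma 1 of the 10 rose and 1 fell over all male libraries, where 5.92% of genes passed. Slc5a12 was at 17.5 to 29.7 TPM in male Kl/Kl and 1.17 to 11.1 TPM in male control kidneys. Slc22a6 was at 15.7 to 45.2 TPM in male Kl/Kl and 57.7 to 134 TPM in male control kidneys. In bulk tissue, fewer cells of a type and less RNA per cell cannot be told apart.

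Ren1 encodes renin and lies on the + strand at chr1:133278248-133288064 (mm39). Mice of the 129S1/SvlmJ lineage carry an additional, nearly identical renin gene, Ren2, that the C57BL/6 mouse behind the reference genome lacks, so what share of these reads came from Ren1 itself is uncertain. In male Kl/Kl kidneys it was at 60.1, 5.39, 9.70, 14.8 and 12.9 TPM, against 9.18, 11.3 and 4.03 TPM in male controls. Replicate 1 alone was far above the rest. Of the other Kl/Kl libraries, replicates 2 and 3 lay within the range of the controls and replicates 4 and 5 above it. Without control replicate 3, replicate 2 lay below that range. The mean was 20.6 ± 22.4 TPM in male Kl/Kl (SD, n = 5) and 8.16 ± 3.72 TPM in male control kidneys (SD, n = 3), and without Kl/Kl replicate 1 the Kl/Kl mean was 10.7 ± 4.11 TPM (SD, n = 4). The log2 change of 0.86 (SE 0.59, limma adjusted p = 0.361) did not pass, nor did the 0.48 found without control replicate 3 (SE 0.73, limma adjusted p = 0.678), and with Kl/Kl replicate 1 left out as well it was -0.01.

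In female Kl/Kl kidneys Ren1 was at 19.4, 4.73, 0.0749 and 8.05 TPM, against 18.2, 9.62, 18.0 and 20.3 TPM in female controls. Of the female Kl/Kl libraries, 3 lay below every control and replicate 1 lay among them. The log2 change was -1.55 (SE 0.82, limma adjusted p = 0.745), and -0.74 without Kl/Kl replicate 3 (SE 0.41, limma adjusted p = 0.368), where the means were 10.7 ± 7.68 TPM in Kl/Kl (SD, n = 3) and 16.5 ± 4.72 TPM in control kidneys (SD, n = 4). Neither passed. With Kl/Kl replicate 1 left out as well, the change was -1.24 (SE 0.30, limma adjusted p = 0.116), and it ran from -1.24 to -0.32 with 1 further library left out. The female minus the male change was -2.41 (SE 1.10, limma adjusted p = 0.542) over all libraries and -1.21 (SE 0.91, limma adjusted p = 0.476) without both that stand apart.

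The mouse adrenal gland, which lies on the kidney, also makes renin. The summed TPM of 7 adrenal cortex markers was 8.70 in male Kl/Kl replicate 1 and 53.4 in male Kl/Kl replicate 2, and at most 0.798 in any other library. Akr1b7, an aldo-keto reductase known from both renin cells and the adrenal cortex of the mouse, was at 4.70 and 2.89 TPM in those libraries and at most 0.490 TPM elsewhere. The library with the highest adrenal sum had the lowest Ren1 of the male Kl/Kl libraries, 5.39 TPM, and the library with the highest Ren1 had the next adrenal sum. The part of adrenal tissue in the Ren1 values was not tested.

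**Figure D2:**
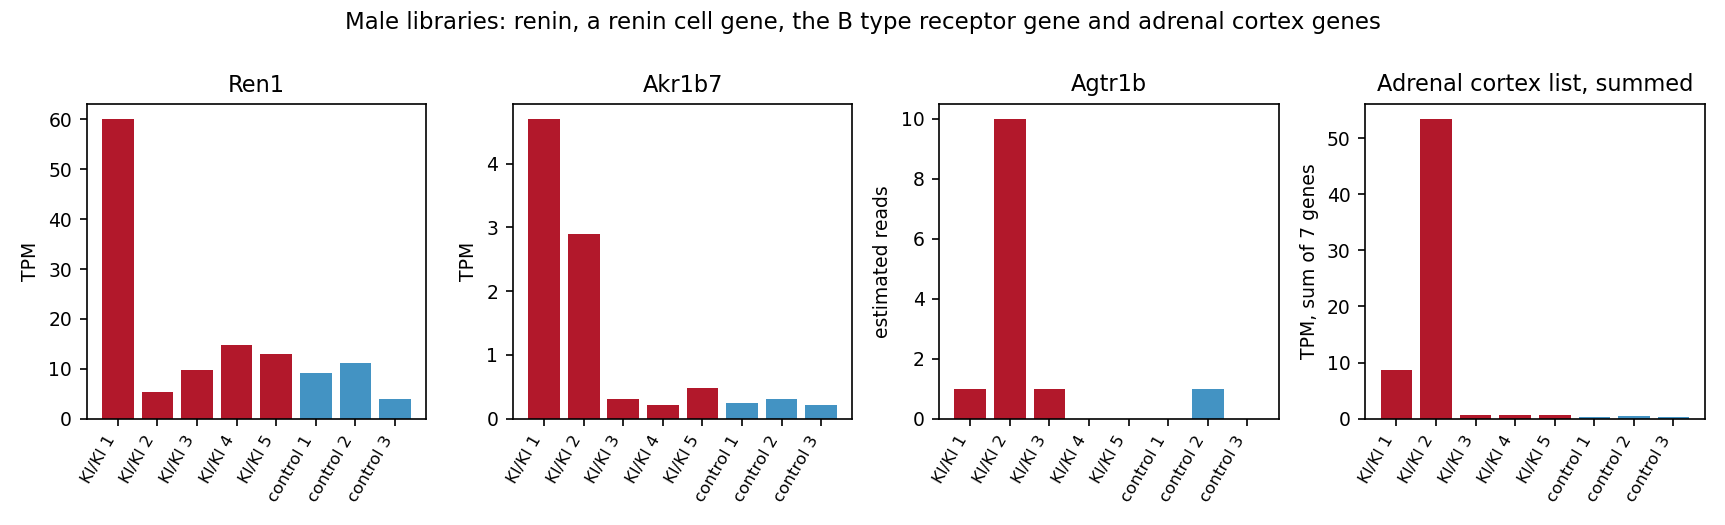
Bars give 1 value for each of the 8 male libraries, with the 5 Kl/Kl libraries in red on the left and the 3 controls in blue on the right. The y axes are TPM of Ren1, TPM of Akr1b7, estimated reads of Agtr1b and the summed TPM of 7 adrenal cortex genes. Ren1 peaks in Kl/Kl replicate 1 at 60.1 TPM, whereas Agtr1b (10 reads) and the adrenal sum (53.4 TPM) peak in Kl/Kl replicate 2.

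Ace encodes angiotensin-converting enzyme and lies on the + strand at chr11:105858771-105880791 (mm39). In male Kl/Kl kidneys it was at 2.49, 3.84, 2.61, 3.26 and 6.77 TPM, against 17.2, 18.8 and 4.49 TPM in male controls. Control replicate 3 fell among the Kl/Kl libraries, and the other controls lay well above all of them. The mean was 3.79 ± 1.75 TPM in male Kl/Kl (SD, n = 5) and 13.5 ± 7.85 TPM in male control kidneys (SD, n = 3). The log2 change over all male libraries, -1.45 (SE 0.41), narrowly missed the threshold (limma adjusted p = 0.0577) and passed with median-of-ratios scaling (log2 -1.66, limma adjusted p = 0.0146).

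Without control replicate 3, Ace fell in male Kl/Kl kidneys, with a log2 change of -2.05 (SE 0.29, limma adjusted p = 0.00569) against controls at 18.0 ± 1.13 TPM (SD, n = 2). The groups then did not overlap, as was so in the lower direction for 22.7% of genes tested. With control replicate 1 or 2 left out in addition, so that 1 control remained and was taken to vary like the other libraries, the change stayed at -2.11 and -1.99 and the limma adjusted p was 0.0670 and 0.0800. Among libraries whose names begin with FDK (3 Kl/Kl and 2 controls), the change was -1.96 (SE 0.34, limma adjusted p = 0.0317). The male libraries with the prefix DK hold a single control, replicate 3, so no value was taken within them.

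Female Kl/Kl kidneys had 5.88, 4.15, 0.501 and 8.64 TPM of Ace, against 12.5, 8.83, 14.0 and 8.27 TPM in female controls. The groups overlapped at a single point, Kl/Kl replicate 4 lying between control replicates 4 and 2. The log2 change was -1.29 (SE 0.55, limma adjusted p = 0.745), and -0.74 without Kl/Kl replicate 3 (SE 0.24, limma adjusted p = 0.172), and neither passed. The female minus the male change was 0.16 over all libraries (SE 0.74, limma adjusted p = 0.902) and 1.31 without both that stand apart (SE 0.41, limma adjusted p = 0.0947), which missed the threshold too.

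Relative to summed proximal tubule markers, Ace was at 0.410% to 0.8281% in male Kl/Kl and 0.781% to 2.14% in male control kidneys (1.75% to 2.14% without control replicate 3, where 2.99% of genes tested were lower on that scale in all Kl/Kl libraries). Enpep is on the same brush border, and the ratio of Ace to Enpep TPM within a library, 1 of 3 ratios computed and chosen after the values were seen, was 0.907 to 2.01 in male Kl/Kl (median 1.31) and 2.59 to 3.15 in male control libraries (median 3.13). These groups did not overlap even with control replicate 3 kept. That was so in the same direction for 1.69% of ratios of a tested gene to Enpep (1.7% without control replicate 3). In females the ratio was 1.31 to 2.31 in Kl/Kl and 1.89 to 3.84 in control libraries, and the groups overlapped with and without Kl/Kl replicate 3. The ratio of Agt to Ren1 was 0.169 to 1.68 in male Kl/Kl and 0.478 to 0.702 in male control libraries, and these groups overlapped. That of Agtr1a to Enpep was 0.186 to 0.332 in male Kl/Kl and 0.121 to 0.205 in male control libraries, which overlapped too, although not without control replicate 3 (0.121 to 0.180), as was so in the same direction for 87.4% of ratios to Enpep. In females both ratios overlapped with and without Kl/Kl replicate 3.

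**Figure D3:**
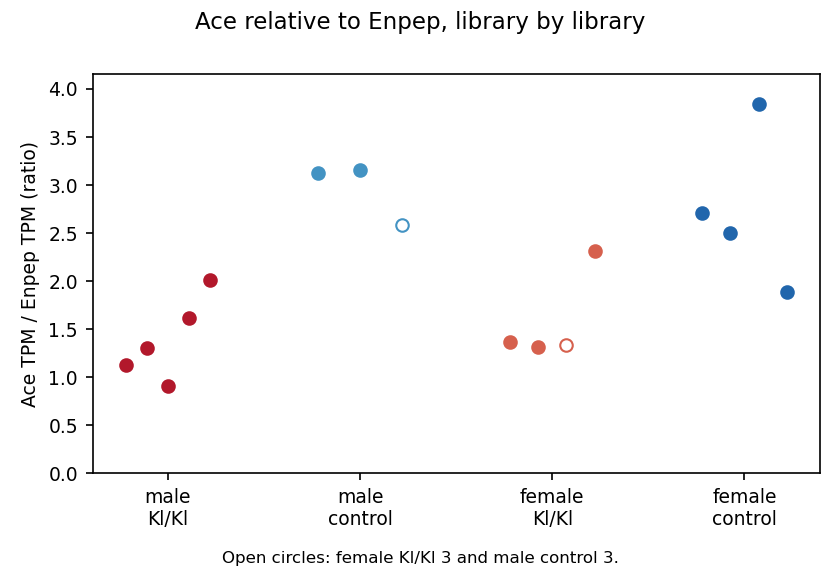
The y axis is the TPM of Ace divided by that of Enpep, the x axis gives the 4 groups, and each point is 1 library, with replicate 3 of female Kl/Kl and of male control as open circles. Male Kl/Kl libraries sit at 0.907 to 2.01, below the 3 male controls at 2.59 to 3.15. In females the groups overlap.

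Enpep encodes aminopeptidase A, which removes the first residue of angiotensin II, and lies on the - strand at chr3:129062824-129126370 (mm39). In male Kl/Kl kidneys it was at 2.21, 2.94, 2.88, 2.02 and 3.37 TPM, against 5.51, 5.97 and 1.73 TPM in male controls. Control replicate 3 was the lowest of the male libraries and the other controls were the highest. The log2 change was -0.45 over all male libraries (SE 0.28, limma adjusted p = 0.326), and without control replicate 3 Enpep fell, with a log2 change of -0.88 (SE 0.15, limma adjusted p = 0.0133) and 2.68 ± 0.556 TPM in Kl/Kl (SD, n = 5) and 5.74 ± 0.327 TPM in control kidneys (SD, n = 2). That call was lost when control replicate 1 (limma adjusted p = 0.115) or control replicate 2 (0.150) was left out in addition, and with the replicate number as a block (0.0507). As a share of the proximal tubule sum, Enpep was at 0.412% to 0.507% in male Kl/Kl and 0.302% to 0.680% in male control libraries. These groups overlapped. Without control replicate 3 (0.560% to 0.680%) they did not, as was so in the lower direction for 2.99% of genes on that scale. In females without Kl/Kl replicate 3 the shares overlapped, and the median was higher in Kl/Kl (0.438%) than in control libraries (0.360%).

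Female Kl/Kl kidneys had 4.30, 3.16, 0.375 and 3.74 TPM of Enpep, against 4.60, 3.54, 3.65 and 4.37 TPM in female controls. The groups overlapped with and without Kl/Kl replicate 3. The log2 change was -0.54 (SE 0.41, limma adjusted p = 0.745), and -0.09 without that library (SE 0.11, limma adjusted p = 0.672). Enpep was then lower in Kl/Kl in 3 of 3 same-numbered pairs, as were 12.8% of genes tested, and the fit with the replicate number as a block gave -0.13 (limma adjusted p = 0.449). Over all libraries the female minus the male change was -0.09 (SE 0.53, limma adjusted p = 0.930). In that fit 0 of the 6 genes differed between the sexes, where 0.211% of 8535 genes did (18 higher and 0 lower, against 25 and 6 with median-of-ratios scaling). At an unadjusted limma p under 0.05 there were 2 of the 6, Ren1 and Atp6ap2, with 660 of all 8535 genes. Without both libraries that stand apart the difference in Enpep was 0.79 (SE 0.19, limma adjusted p = 0.0395), the single gene of the 6 past the threshold, where 3.89% of 8696 genes passed (298 higher and 40 lower, against 219 and 70 with median-of-ratios scaling). That call was lost under 9 of 17 further alternatives, with limma adjusted p-values from 0.0199 to 0.181 over all of them.

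Mme encodes neprilysin, an endopeptidase that cuts angiotensin I among many peptides, and lies on the + strand at chr3:63148958-63293452 (mm39). In male Kl/Kl kidneys it was at 1.02, 1.98, 1.62, 1.34 and 1.97 TPM, against 1.75, 1.96 and 0.547 TPM in male controls. The male groups overlapped, and the log2 change was 0.14 (SE 0.22, limma adjusted p = 0.696) or, without control replicate 3, -0.16 (SE 0.16, limma adjusted p = 0.522). In female Kl/Kl kidneys it was at 1.86, 2.02, 0.574 and 2.42 TPM, against 2.66, 2.70, 2.60 and 2.74 TPM in female controls. All female Kl/Kl libraries lay below all female controls, as was so for 3.54% of genes tested (3.9% without Kl/Kl replicate 3), and the controls were close together at 2.68 ± 0.0595 TPM (SD, n = 4). The log2 change in females nevertheless did not pass, at -0.49 (SE 0.24, limma adjusted p = 0.745) and, without Kl/Kl replicate 3, -0.25 (SE 0.07, limma adjusted p = 0.128). Relative to the proximal tubule sum, the female groups without that library overlapped, at 0.227% to 0.280% in Kl/Kl and 0.231% to 0.276% in control kidneys.

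Agtr1a encodes the main type 1 angiotensin receptor of the rodent kidney and lies on the + strand at chr13:30520424-30566851 (mm39). It was at 0.733, 0.708, 0.535, 0.492 and 0.725 TPM in male Kl/Kl kidneys, against 0.990, 0.723 and 0.356 TPM in male controls. In females it was at 0.850, 0.769, 0.0908 and 0.815 TPM in Kl/Kl kidneys, against 1.23, 0.8286, 1.085 and 0.836 TPM in controls. The groups overlapped in both sexes. Two-sided exact permutation tests of the mean log2(TPM + 1) gave p = 0.75 in males (difference -0.03) and p = 0.114 in females (difference -0.32), or 0.75 and 0.457 after Benjamini-Hochberg adjustment over the 4 tests of the receptor genes. The smallest p these designs allow was 0.0357 in males and 0.0286 in females. Without the libraries that stand apart the exact permutation p was 0.286 in males and 0.229 in females, where the smallest possible values were 0.0952 and 0.0571. Agtr1a, like Enpep and Mme, was lower in Kl/Kl in each of the 3 same-numbered female pairs without replicate 3, and Agt was higher in each. Of the genes past the level filter, which Agtr1a is not, 12.8% were lower and 25.0% higher in every pair.

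Agtr1b, the B form of the same receptor in rodents, which is best known from the adrenal cortex, lies on the - strand at chr3:20368637-20421342 (mm39) and had almost no reads. Male Kl/Kl libraries had an estimated 1, 10, 1, 0 and 0 reads, against 0, 1 and 0 in male controls. Female Kl/Kl libraries had an estimated 2, 1, 22 and 1 reads, against 3, 0, 0 and 0 in female controls. The library with 10 reads was the one with the highest adrenal cortex sum (53.4 TPM), and the one with 22 was female Kl/Kl replicate 3, whose adrenal sum was 0.318 TPM. The part of other tissue in these reads was not tested. The exact permutation p was 0.429 in males and 0.286 in females (0.571 in both after adjustment over the 4 tests), and 0.762 in males and 0.571 in females without the libraries that stand apart. A difference was not detectable at this depth.

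Atp6ap2 encodes the (pro)renin receptor, which is also a subunit of the vacuolar proton pump, and lies on the + strand of the X chromosome at chrX:12454040-12483289 (mm39). It was at 4.97, 4.57, 4.72, 4.43 and 4.19 TPM in male Kl/Kl kidneys, against 3.95, 3.85 and 1.91 TPM in male controls. All male Kl/Kl libraries lay above all male controls, in the same direction as 19.1% of genes, but the log2 change of 0.44 (SE 0.19, limma adjusted p = 0.178) did not pass. Without control replicate 3 it was 0.18 (SE 0.09, limma adjusted p = 0.208). In females it was at 4.77, 4.44, 3.51 and 4.53 TPM in Kl/Kl kidneys, against 4.95, 4.37, 4.43 and 4.57 TPM in controls. The female groups overlapped, with a log2 change of -0.08 (SE 0.12, limma adjusted p = 0.766), and 0.00 without Kl/Kl replicate 3 (SE 0.06, limma adjusted p = 0.998). Female Kl/Kl replicate 3, which was nearly without Ren1 and Agt, was close to the others in Atp6ap2, a gene that most cell types use.

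**Figure D4:**
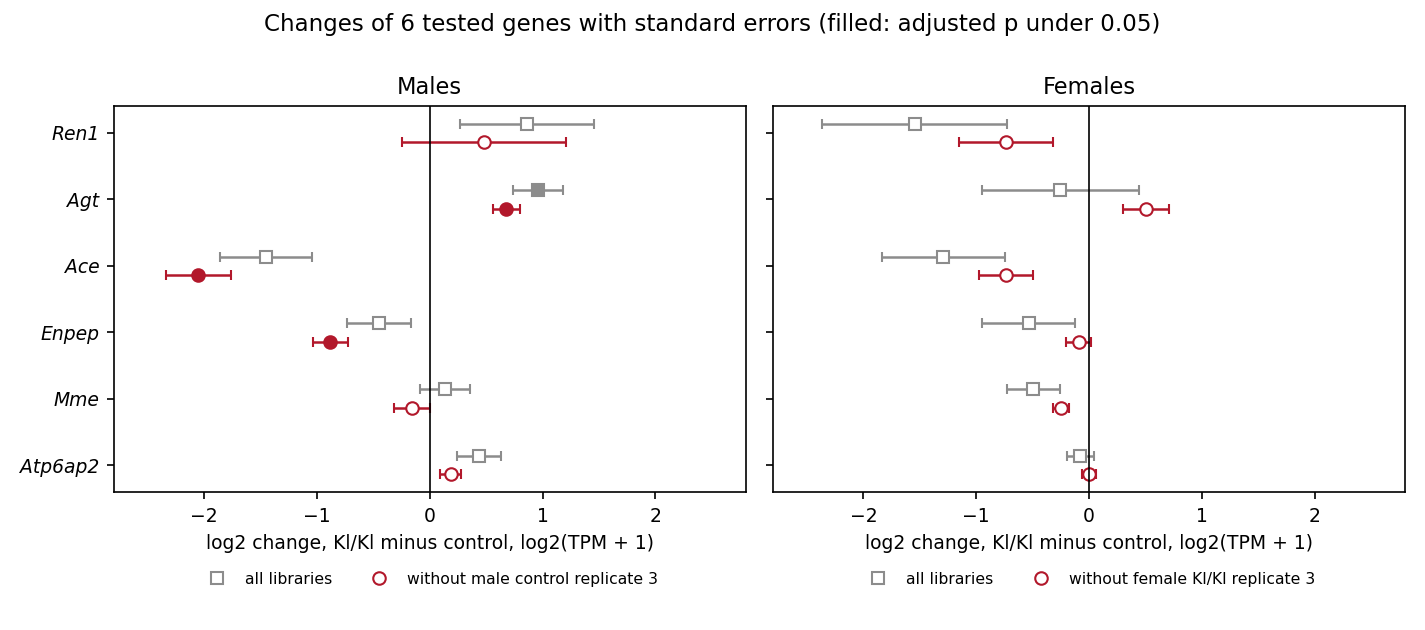
Points give the log2 change, Kl/Kl minus control, of log2(TPM + 1) on the x axis for the 6 tested genes on the y axis, in males (left) and females (right), with bars of 1 SE. Grey squares are fits over all libraries and red circles are fits without the library that stands apart, and a filled symbol has a limma adjusted p under 0.05. In males Agt is filled in both fits and Ace and Enpep in the fit without control replicate 3, while no symbol is filled in females.

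Few of the other genes that make, cut or sense angiotensins passed the test. Of 14 such genes, 12 were in the tables and 6 passed the level filter in males and 7 in females. Over all male libraries 0 of 6 passed the threshold by limma (1 at an unadjusted p under 0.05, with 2271 of all 8439 genes). In females 0 of 7 passed over all libraries and 0 of 7 without Kl/Kl replicate 3. At an unadjusted limma p under 0.05 there were 0 in both, with 414 of 8596 and 1614 of 8748 genes. Without control replicate 3, 2 of 6 fell in males, where 7.36% of genes did. They were Anpep, which encodes aminopeptidase N (log2 -0.74, SE 0.14, limma adjusted p = 0.0188), and Rnpep, which encodes aminopeptidase B (log2 -0.52, SE 0.12, limma adjusted p = 0.0314). Anpep was at 2.47, 2.49, 2.499, 2.93 and 3.16 TPM in male Kl/Kl kidneys, against 4.29, 6.24 and 1.93 TPM in male controls. As with Enpep, control replicate 3 was the lowest library and the other controls were the highest. The female minus the male change in Anpep without both libraries that stand apart was 0.73 (SE 0.17, limma adjusted p = 0.0367). The list's median log2 change was 0.01 in males and -0.26 in females, and -0.26 and -0.02 without the libraries that stand apart.

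Receptor genes of the counteracting arm were under the level filter. The type 2 receptor gene Agtr2 reached 0.151 TPM in male Kl/Kl replicate 2, the library with the highest adrenal cortex sum, and at most 0.0378 TPM in the other male Kl/Kl and 0.0313 TPM in male control kidneys. In females it was at 0.337 TPM in Kl/Kl replicate 3, and at most 0.0320 TPM in the other Kl/Kl and 0.0675 TPM in control kidneys. Mas1, which encodes a receptor for a shortened angiotensin, reached 0.0231 TPM in male Kl/Kl and 0.0637 TPM in male control kidneys. In females it reached 0.0137 TPM in Kl/Kl and 0.0134 TPM in control kidneys. At these low levels Mas1 was not tested.

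Of 5 genes of the kallikrein and kinin system, whose kinin peptides ACE and neprilysin also cut, 2 passed the level filter. By limma 0 passed the threshold in any of these comparisons. At an unadjusted p under 0.05 there was 1 in males and 0 in females, with or without the libraries that stand apart. A list of 17 genes covered renin cells and the macula densa, the salt-sensing cells that govern renin release. Of these, 9 were tested in males and 8 in females, and 0 passed by limma. The tested genes were Gja4, Rgs5, Adcy6, Gnas, Vdr, Slc12a1, Casr, Npr1 and, in males only, Akr1b7. Nos1, Ptgs2, Gja5, Gjc1 and Adrb1 were among those under the level filter, so the counts and medians do not cover them. At an unadjusted p under 0.05 there were 6 of the 9 in males, with 2271 of all 8439 genes, and 2 of the 9 without control replicate 3, with 2749 of 8640 genes. In females there were 0 of the 8, with 414 of 8596 genes, and 1 without Kl/Kl replicate 3, with 1614 of 8748 genes. Their median log2 change in males was 0.50, beside 0.19 for all genes, and 0.30 without control replicate 3, beside 0.01. Lists of other cells also lay above the median of all genes in males, with median log2 changes of 0.42 for 4 podocyte genes, 0.39 for 3 endothelial genes and 0.37 for smooth muscle and mesangium genes, and 0.30, 0.19 and 0.26 without control replicate 3. Of the podocyte genes 0 of 4 rose over all male libraries and 2 of 4 without that control. The part of these cells in the renin cell values was not tested.

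The genes whose pattern was most like that of each of 4 members were found from log2(TPM + 1), standardised within each table, as the smallest mean absolute difference in SD over the 14 libraries that do not stand apart. For Ace these were Nceh1 (0.171 SD), Proc (0.172) and Treh (0.175), where the median over 8143 genes was 1.12. Treh, the trehalase gene, was at 1.82 to 3.67 TPM in male Kl/Kl kidneys, against 13.4, 13.6 and 6.77 TPM in male controls. Control replicate 3 was thus the lowest male control in Treh as in Ace, but in Treh it lay above all male Kl/Kl libraries. It was also above them in Proc (7.46 TPM, against 1.04 to 2.51 TPM) and below them in Nceh1 (1.13 TPM, against 1.67 to 2.04 TPM). For Agtr1a they were Smpd1 (0.189), Egln1 (0.256) and Tmem250-ps (0.282), and for Agt they were Gm11224 (0.240), 1500011B03Rik (0.263) and Gm7266 (0.276). For Ren1 they were Tmco6 (0.333), Gm44243 (0.402) and B230206H07Rik (0.417). Ren1's nearest genes were farther from it than those of the other 3 members. Tmco6 was highest in male Kl/Kl replicate 1 (4.31 TPM, against 1.25 to 2.22 TPM in the other male Kl/Kl libraries). That library was among the 14 used to choose Tmco6, so the shared peak follows in part from the choice.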

How the data were processed

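Per the labels, kidneys were perfused and flash frozen, and polyadenylated RNA was made into directional libraries. The authors deposited TPM values in 2 tables, 1 per sex, each with 30277 genes and 8 libraries. The submitters' processing notes name the build mm39 and the program Partek. Not given in the sources used here are the aligner, the counting method and its use of strand. In the deposited tables the gene starts and stops are coordinates, and the TPM values scale with genomic span. Each value was multiplied by span and scaled so that the lowest genes of a library stood at an offset of 0.0001 read. Of the low genes of a library, 72.8% to 75.2% then fell on whole reads within 0.05. Depths and reads obtained in this way are estimates, so no counting interval was computed. Columns total 285327 TPM in males and 265288 TPM in females.

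Kl/Kl was compared with control within each table on log2(TPM + 1), a scale that understates changes of low genes, in R 4.3.3 with limma 3.58.1 (eBayes with a trend) over genes averaging 1 TPM or more, at a Benjamini-Hochberg adjusted p under 0.05. The difference between the sexes' changes came from a 4-group model. Genes under the filter had two-sided exact permutation tests in SciPy 1.17.1. The code was tested on simulated data. Python 3.11.15, pandas 2.3.3, NumPy 2.4.6 and matplotlib 3.10.9 handled tables and plots. Promoters and their coordinates are RefSeq's on GRCm38.p6.

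The 8 genes and the lists of other genes were chosen with earlier results of these data known. All 8 are described, other lists by counts, with values for genes past the threshold and for Agtr2, Mas1, Akr1b7, Slc5a12 and Slc22a6, named after their values were seen. Mrgprd, Ctsg and Ly6g were not analysed here, and 1 further angiotensin gene is not reported here. Marker lists covered tubule, podocyte, smooth muscle, endothelium, adrenal, heart, airway, alveolar, adipocyte, liver, blood, macrophage and neutrophil genes. Over all libraries, deviations of same-numbered libraries had r from -0.18 to 0.04 in males and -0.12 to 0.29 in females, where replicate 4 had 0.29. In females without Kl/Kl replicate 3, r was 0.21 to 0.48 in every pair, the reason for the blocked values given there. In males without control replicate 3, r was 0.13 and -0.077, and the block was run there as an alternative only. Alternatives were other pseudocounts, filters and scaling, array weights, age, the library name prefix, a replicate block, a 4-group model and leaving out each library. Fits without the libraries that stand apart were repeated with some of these after the data had been seen.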

Additional observations from a re-analysis of the deposited data

Results flagged for a closer look

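Over 27 groups of 4 or 5 libraries, 5 values lay far from the rest of their group by Dixon's test, and 2 of the 5 were in female Kl/Kl replicate 3. For normally distributed values chance gives this in about 1 in 20 groups. That rate does not hold for Agtr1b, where few reads in 1 library are enough for a flag, so no excess over chance can be read from the 5. Ren1 in male Kl/Kl replicate 1 was far above the other male Kl/Kl libraries, at 60.1 TPM. Agtr1a in female Kl/Kl replicate 3 was far below the others, at 0.0908 TPM. Agtr1b was far above its group in male Kl/Kl replicate 2 (0.00664 TPM), in female Kl/Kl replicate 3 (0.0118 TPM) and in female control replicate 1 (0.00207 TPM), values that rest on 10, 22 and 3 estimated reads.

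The change in Enpep differed between the sexes when both libraries that stand apart were left out (female minus male 0.79 on the log2 scale, limma adjusted p = 0.0395), but not over all libraries (-0.09, limma adjusted p = 0.930). In that contrast sex, table and control genotype cannot be told apart.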

How the results depend on the processing

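In males the count of 1 gene past the threshold became 0 with no filter on low values, 2 with median-of-ratios scaling, 3 with array weights, 2 with the library name prefix as a covariate, 0 with a replicate block, 0 in the 4-group model and 3 in libraries with the prefix FDK, and 0 to 3 with single libraries left out. Without control replicate 3 the count of 3 became 1 with a replicate block (Ace) and 0 to 3 with a further library left out. In females it was 0 under all alternatives run. For the female minus the male change the count of 0 became 2 with array weights and 1 without both libraries that stand apart, and stayed at 0 with single libraries left out. That 1, Enpep, became 0 with median-of-ratios scaling and 0 to 2 with a further library left out. The genes called over the whole table ranged from 185 to 2829 in males (main 500), from 0 to 327 in females (main 3) and from 3 to 1036 for the difference (main 18). Without the libraries that stand apart they ranged from 127 to 2494 in males, from 2 to 48 in females and from 97 to 423 for the difference. Over all libraries the replicate block cost the male Agt call (limma adjusted p = 0.116) and changed no other call of the 6 genes, and it left 227 genes called over the whole table in males, 0 in females and 9 for the difference.

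Signs turned for changes that had not passed the threshold in their starting fit, and some alternatives gave larger values of the other sign. Mme in males was -0.085 with array weights and -0.24 in FDK libraries, and -0.16 to 0.31 with single libraries left out. Agt in females was 0.53 with array weights and 0.13 with age as a covariate, and -0.61 to 0.51 with single libraries left out. Atp6ap2 in females was 0.16 with median-of-ratios scaling, 0.0195 with array weights and -0.12 to 0.00044 with single libraries left out. Without Kl/Kl replicate 3 it was -0.0120 with a replicate block, -0.0636 with that scaling and -0.0240 to 0.0319 with a further library left out. The female minus male change of Ace was -0.0050 and -0.0440 with pseudocounts of 0.1 and 0.01 TPM, and -0.18 to 0.76 with single libraries left out. That of Enpep was 0.18 with median-of-ratios scaling, 0.76 with array weights, 0.12 with age, 0.79 without both libraries that stand apart and -0.33 to 0.36 with single libraries left out. Ren1 in males without control replicate 3 ran from -0.0135 to 0.80, and the Agt difference without both libraries that stand apart from -0.33 to 0.0445, with a further library left out. The cause of each was not tested. Over all male libraries the Agt call was lost under 8 of 19 alternatives and Ace passed under 6. With 2 or 3 male controls, a single library decides these calls. Agtr1b is limited by depth.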
